A study of Mus musculus with 20 samples.

Results

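The genes described here are 40 genes of the cell cycle, each put in 1 of 3 phases: 7 of G1 (Ccnd1, Ccnd2, Ccnd3, Cdk4, Ccne1, Ccne2 and Cdk2), 11 of S phase (Cdc6, Mcm2 to Mcm7, Pcna, Rrm1, Rrm2 and Tyms) and 22 of mitosis. The list was drawn up with earlier results of these data known. Its probes were found by matching the gene symbols of the array's platform annotation. Of the 40 genes, 39 had at least 1 probe, out of 19087 genes with a probe on the array. Ccnb1 was not analysed here. The 39 genes had 65 of the 44290 features: 12 for G1, 17 for S phase and 36 for mitosis. A single probe stood for 19 genes, 14 genes had 2 probes and 6 had 3, numbered below in the order of their feature IDs. All 65 probes had a value on all 20 arrays.

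RNA came from the spinal cord of female C57BL/6 mice, labelled as 60 day in every group (the design text gives 2 to 4 months), that were wild type (WT) or their littermates with a GFAP-IkappaBalpha-dn transgene (TG). The transgene puts a dominant negative IkappaBalpha, which blocks NF-kappaB, under the promoter of the astroglial gene Gfap. Some mice were naive. In the others experimental autoimmune encephalomyelitis (EAE), an inflammatory disease of the central nervous system, was induced with MOG(35-55) peptide in complete Freund's adjuvant and pertussis toxin, and cords were taken 10, 17 or 80 days post-induction (dpi). Each of the 20 arrays set 1 animal in Cy5 against 1 in Cy3. The labels name 12 TG and 11 WT animals. Every group had 3, apart from the WT group of 17 dpi, for which the labels give 2 (numbers 1 and 4) and the design text 3. The arrays that set TG against WT were 3 (naive), 4 (10 dpi), 3 (17 dpi) and 4 (80 dpi). Each of 6 further arrays set 2 times of 1 genotype against each other, so a change over time rests on 1 direct array and on links through other groups, and its n counts animals (3 against 3, or 2 where WT at 17 dpi enters). No array links 10 dpi to another time. The whole cord was used, so fewer cells of a type and less RNA per cell cannot be told apart.

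The labels do not state which of the 2 animals the ratio is divided by. Every value below is read as TG over WT, and over time as EAE over naive, which is a working direction. The 2 arrays of 17 against 80 dpi were left as Cy5 over Cy3: 17 over 80 dpi in WT and 80 over 17 dpi in TG. Fitted changes between these times are given as 80 dpi over 17 dpi in both genotypes. With the ratios read in the order of the titles instead (Cy5 over Cy3), no member passed the test in TG over WT at 17 dpi or in WT at 17 dpi over naive, and at 80 dpi probe 3 of Ccnd2 passed in the opposite direction, at 0.49. As read here, skeletal muscle medians of TG animal 1-5 at 10 dpi were 1.99 (TG in Cy5) and 2.37 (TG in Cy3). Macrophage and microglia marker medians at 17 dpi were -1.26 and -1.21 with TG in Cy5 and -1.54 with TG in Cy3. In title order the values with TG in Cy3 take the opposite sign. Per-array values are the deposited ratios, read as log2 although their base is not stated, and changes are log2 fold changes ± the standard error (SE) from the fit. Values given as times or percent of the WT level rest on that base. The fit took arrays that share an animal as independent, so SE and p reflect the spread between arrays, while n counts animals. A gene is said to have risen or fallen where the limma fit's p, adjusted by Benjamini-Hochberg over all 43791 or 43792 probes tested, was under 0.05. Signal levels do not come with the deposited ratios. Neither dim probes nor the level of any tissue marker could be checked, and levels of different genes cannot be compared.

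A cell that begins to divide passes from G1 into S phase, copies its DNA, and then separates the copies in mitosis. D cyclins with Cdk4, and later E cyclins with Cdk2, inactivate the retinoblastoma protein and so release E2F transcription factors, which switch on genes of DNA replication. Genes of mitosis are switched on later in the cycle, by complexes that bind CCAAT boxes and the cell cycle homology region (CHR) of their promoters. In the adult spinal cord few cells divide, while in EAE infiltrating immune cells, microglia and glial progenitors can.

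Promoter letters were counted by phase, with no test between the phases. RefSeq promoters of GRCm38.p6, from 250 bases before to 50 bases after the start, were matched for 31 of the 39 genes, as 33 promoters. Both strands were searched for CHR (TTTGAA), for CCAAT, and for 4 forms of the E2F site (TTTCGCGC, TTTGGCGC, TTTCCCGC and TTTGCCGC). In 2 promoters, matches of 2 motifs overlapped. CHR letters were present in 14 of 17 mitosis promoters (82.4%), 1 of 11 S phase promoters (9.09%) and 0 of 5 G1 promoters, against 17.9% of all 32851 promoters. CCAAT was present in 88.2%, 81.8% and 40.0% of the mitosis, S phase and G1 promoters, against 37.4% of all. E2F letters were present in 1 mitosis (5.88%), 5 S phase (45.5%) and 1 of 5 G1 promoters, against 2.26% of all. The 4 promoters of Mki67, Bub1b, Ccnd3 and Kif23 are shown because these genes had the smallest p among the members that fell in TG mice at 17 dpi and have a promoter here. That of Mcm3 was added after the values were seen, to show an S phase promoter with E2F letters. Each is written 5′ to 3′ along its gene's strand, with motif matches in capitals. A match is a description of the letters only.
Mki67 (chr7:135716330-135716629, minus strand): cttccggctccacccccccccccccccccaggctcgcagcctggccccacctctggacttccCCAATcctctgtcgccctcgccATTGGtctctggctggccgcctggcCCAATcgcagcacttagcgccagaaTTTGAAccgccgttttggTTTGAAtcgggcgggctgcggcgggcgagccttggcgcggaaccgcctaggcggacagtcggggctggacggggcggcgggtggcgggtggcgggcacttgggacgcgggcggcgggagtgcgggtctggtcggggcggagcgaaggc
Bub1b (chr2:118597961-118598260, plus strand): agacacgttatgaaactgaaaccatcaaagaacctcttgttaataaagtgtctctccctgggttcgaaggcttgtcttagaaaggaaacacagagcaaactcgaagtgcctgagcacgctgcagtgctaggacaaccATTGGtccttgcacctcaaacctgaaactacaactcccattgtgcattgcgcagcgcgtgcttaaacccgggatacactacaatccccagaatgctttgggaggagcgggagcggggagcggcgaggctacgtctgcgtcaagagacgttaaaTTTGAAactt
Kif23 (chr9:61946750-61947049, minus strand): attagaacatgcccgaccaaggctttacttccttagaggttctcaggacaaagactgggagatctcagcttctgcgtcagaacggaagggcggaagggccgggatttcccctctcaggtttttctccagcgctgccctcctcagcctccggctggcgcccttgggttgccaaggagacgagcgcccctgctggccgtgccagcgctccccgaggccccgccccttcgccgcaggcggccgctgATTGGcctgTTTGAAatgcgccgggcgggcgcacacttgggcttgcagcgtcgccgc
Mcm3 (chr1:20820263-20820562, minus strand): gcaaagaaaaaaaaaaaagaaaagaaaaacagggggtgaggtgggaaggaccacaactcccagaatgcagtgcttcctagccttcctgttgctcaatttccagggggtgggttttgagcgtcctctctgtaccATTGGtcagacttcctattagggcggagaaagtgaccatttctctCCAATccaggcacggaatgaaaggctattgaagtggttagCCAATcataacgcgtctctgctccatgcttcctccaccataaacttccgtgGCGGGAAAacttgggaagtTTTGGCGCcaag
Ccnd3 (chr17:47504801-47505100, plus strand, 1 of 2 listed): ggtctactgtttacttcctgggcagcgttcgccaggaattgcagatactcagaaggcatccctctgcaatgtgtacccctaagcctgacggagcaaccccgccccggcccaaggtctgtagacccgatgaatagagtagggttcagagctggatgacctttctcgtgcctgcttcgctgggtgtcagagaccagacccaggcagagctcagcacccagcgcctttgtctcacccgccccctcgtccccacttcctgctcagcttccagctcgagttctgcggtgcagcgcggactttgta
The Mki67 promoter held 2 CHR and 3 CCAAT matches, and those of Bub1b and Kif23 held 1 of each. The Mcm3 promoter held 3 CCAAT and 2 E2F matches and no CHR. The Ccnd3 promoter held none of the motifs.

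In naive cords no member probe passed the test of TG against WT, as was the case for all probes (0.0% called), and 0 of 65 had an unadjusted p under 0.05 against 1.07% of all probes. The median log2 fold change, TG over WT, was 0.02 for G1, 0.08 for S phase and 0.05 for mitosis, beside 0.0027 for all probes. The smallest unadjusted p belonged to Tpx2, which builds spindle microtubules, at 0.25 ± 0.16 (SE, 3 TG and 3 WT animals, adjusted p = 1.0). In G1 they were Ccne2 probe 1 (-0.12 ± 0.12), Ccnd2 probe 3 (0.09 ± 0.09) and Cdk4 (-0.10 ± 0.11). In S phase they were Rrm1 probe 2 (0.13 ± 0.12), Mcm7 (0.10 ± 0.10) and Pcna (-0.08 ± 0.08). In mitosis, Kif20a probe 2 (0.07 ± 0.07) and Nusap1 probe 2 (0.17 ± 0.18) followed Tpx2.

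At 10 dpi no member probe passed the test either (0.0274% of all probes called), although 54 of 65 lay below 0 and 16 had an unadjusted p under 0.05, against 6.58% of all probes. Medians were -0.19 for G1, -0.18 for S phase and -0.14 for mitosis (all probes 0.0026), and all 12 G1 probes were below 0. The member nearest to a call was the D cyclin gene Ccnd2, which brings Cdk4 to the retinoblastoma protein: probe 3 read -0.36, -1.06, -0.40 and -0.41 on the 4 arrays. Those ratios were all below 0, and the fit gave -0.56 ± 0.09 (SE, 3 against 3 animals, limma adjusted p = 0.0757). Its adjusted p was 0.0344 without TG animal 1-5, 0.0311 without WT animal 1-4, 0.0387 without TG17d(3) and 0.0454 without WT17d(4). The side of the threshold thus rested on single animals, also ones outside this contrast. Without TG17d(3) or WT17d(4), animals of 17 dpi, the value stayed at -0.56 and only its p changed. Ccnd1 followed at -0.39 ± 0.10 (adjusted p = 0.279) and Ccnd3 at -0.18 ± 0.07 (0.592).

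Among the S phase genes at 10 dpi, the smallest p belonged to Mcm3 probe 2, of the replicative helicase, at -0.69 ± 0.18 (adjusted p = 0.292). Tyms probe 3, which makes thymidylate, was at -0.35 ± 0.11 (0.409), and Rrm2, a subunit of ribonucleotide reductase, at -0.42 ± 0.17 (0.653). Among the mitosis genes they were Ube2c probe 2, the ubiquitin-conjugating enzyme of the anaphase-promoting complex, at -0.47 ± 0.15 (0.409), Top2a probe 2, a topoisomerase, at -0.93 ± 0.29 (0.422), and Tpx2 at -0.48 ± 0.16 (0.445). A single array stood apart: on that of TG animal 1-3 and WT animal 10-4, 56 of 65 member probes were below 0 with a median of -0.48, while the member medians of the other 3 arrays were -0.08, -0.02 and -0.09. On that array the median of the macrophage and microglia markers was -1.58, against -0.16 to -0.48 on the others, and its part in the member values was not tested. Without TG animal 1-3 the phase medians were -0.11, -0.15 and -0.08. Both arrays of TG animal 1-5 also had skeletal muscle medians of 1.99 and 2.37, and without that animal the phase medians were -0.30, -0.28 and -0.24.

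**Figure D1:**
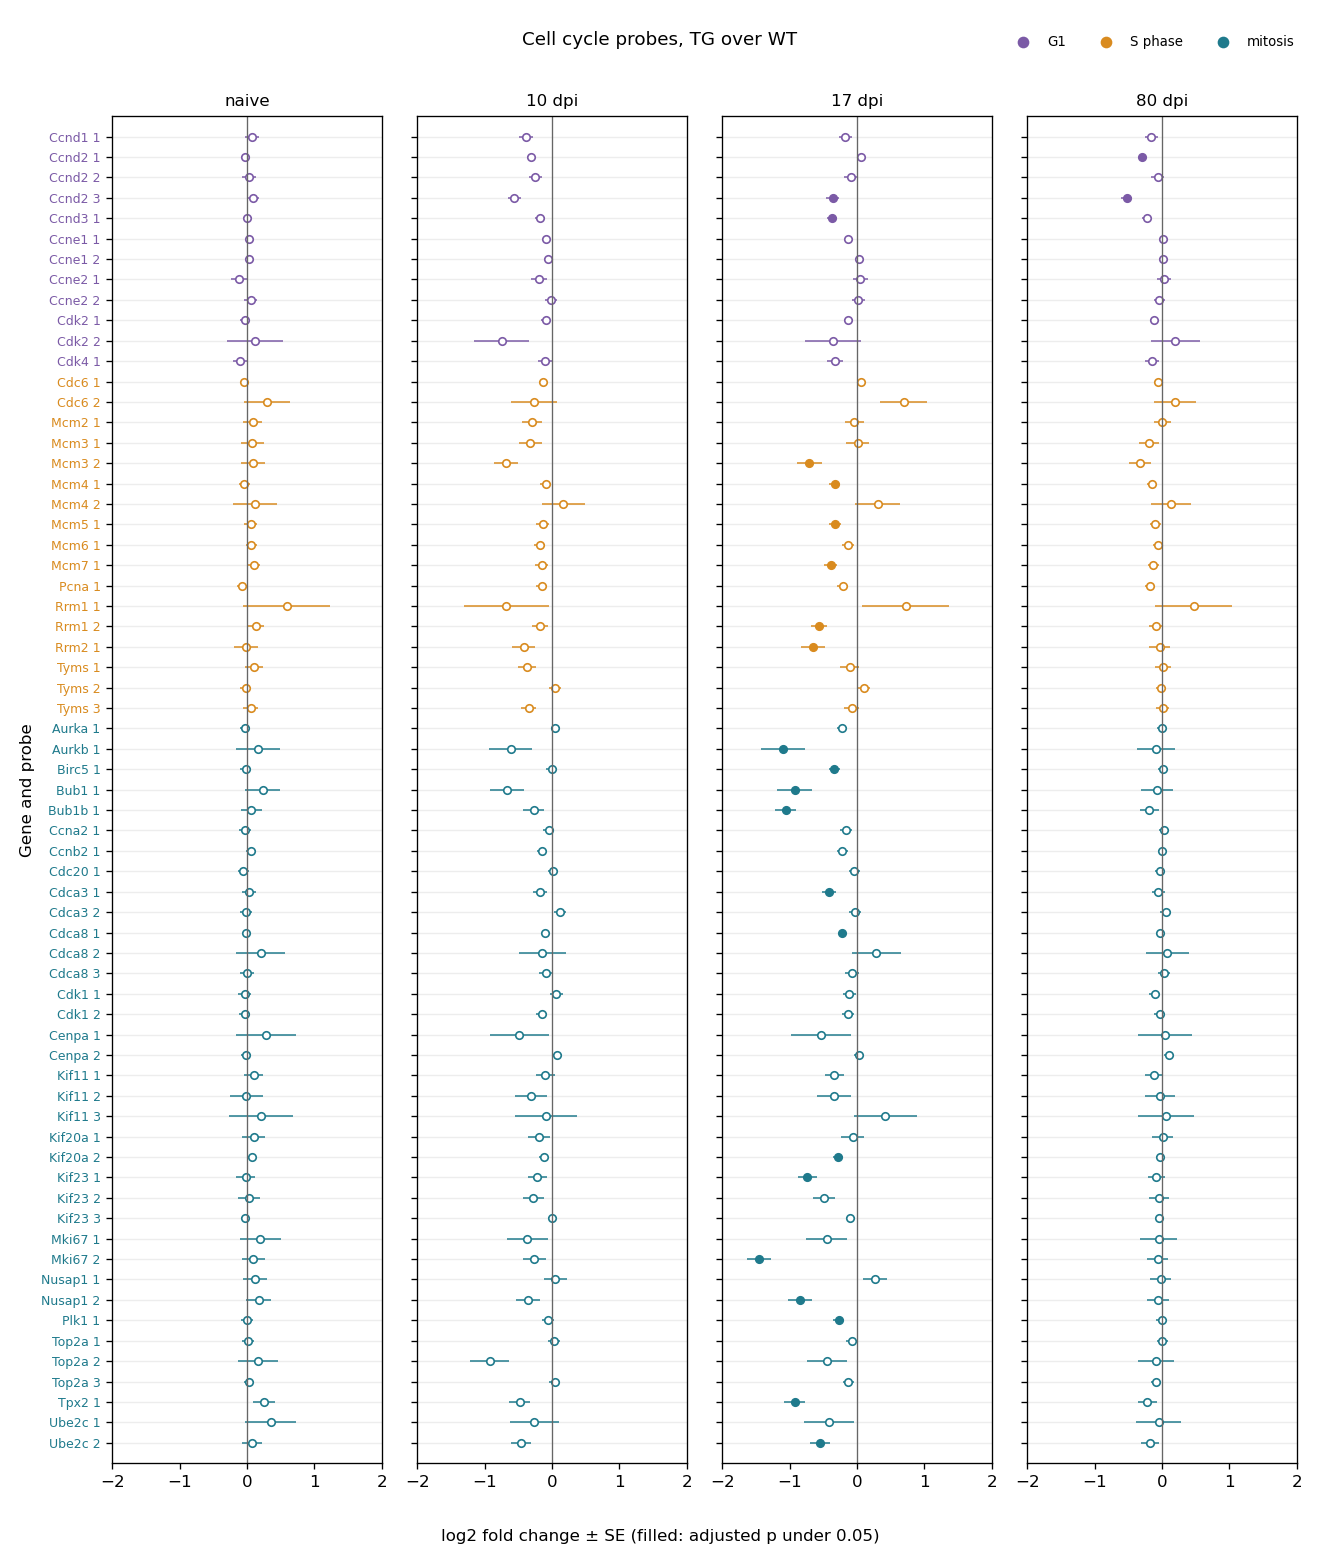
Log2 fold change of TG over WT (horizontal axis) of all 65 member probes, grouped by phase, in naive mice and at 10, 17 and 80 dpi, with bars of ± 1 SE of the fit and filled points for probes with an adjusted p under 0.05. At 17 dpi 21 probes are filled and all lie below 0, at 80 dpi only 2 probes of Ccnd2 are filled, and no probe is filled in naive mice or at 10 dpi.

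At 17 dpi, probes of all 3 phases fell in TG over WT. Of the 65 probes, 21 fell and 0 rose: 13 of 36 for mitosis, 6 of 17 for S phase and 2 of 12 for G1. Over all probes 8.51% were called lower and 4.65% higher. The 21 probes were of 21 different genes. Fitted as 1 value a gene, 13 of 39 members fell, beside 10.1% of all genes, with Mki67 at -0.95 ± 0.19 (adjusted p = 0.00298). Ccnd2, Rrm1, Mcm3, Mcm4, Nusap1, Ube2c, Cdca3, Cdca8 and Kif20a, each with another probe that was not called, were then not called. Aurka was then called, at -0.23 ± 0.07 (0.0449). The medians were -0.28 for mitosis, -0.11 for S phase and -0.13 for G1 (all probes 0.0405), and 32 of 36, 11 of 17 and 8 of 12 probes lay below 0. As deposited, 17 of the 21 were below 0 on all 3 arrays, and the other 4 (Birc5, Cdca8 probe 1, Mcm4 probe 1 and Mcm5) on 2 of 3. With the fitted dye effect taken off, all 21 were below 0 on all 3. The 21 were picked by the fit of these same arrays, so these signs are no separate support. Some probes that were not called, such as those of Cdk4 and Pcna, were then also below 0 on all 3.

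Probe 2 of Mki67, the gene of the proliferation marker Ki-67, had the lowest fitted value of the 65. On the arrays of TG17d(7) over WT17d(1), TG17d(3) over WT17d(4) and TG17d(7) over WT17d(4), it read -1.17, -1.68 and -1.54. All 3 were far below the naive arrays, which read 0.12, -0.04 and -0.02. The fit gave -1.46 ± 0.17 (SE, 3 TG and 2 WT animals, limma adjusted p = 7.2e-05), or 36.5% of the WT level. Probe 1 of the same gene read -0.71, 1.56 and -1.14 on these arrays and did not pass the test (-0.45 ± 0.31, adjusted p = 0.329). The middle array opposes the other two there. That array had the widest spread of the 20 (SD 1.07 over all probes), and without TG17d(3) probe 1 was at -1.03 with an adjusted p of 0.0045.

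Of the spindle checkpoint genes, Bub1b, which encodes the kinase-like protein BubR1, read -0.84, -1.002 and -1.46 at 17 dpi. In naive mice it read 0.03, 0.03 and 0.07, with no overlap between the times. It fell by 1.06 ± 0.16 (adjusted p = 0.000488), to 0.48 times the WT level. Bub1, a kinase that holds the checkpoint at kinetochores, fell by 0.92 ± 0.26 (0.0306). Birc5 (survivin), Cdca8 (borealin) and Aurkb (aurora B kinase) belong to the chromosomal passenger complex, which corrects faulty attachments of chromosomes. Aurkb fell by 1.09 ± 0.32 (0.038) and Birc5 by 0.34 ± 0.08 (0.0145). Cdca8 probe 1 read 0.01, -0.25 and -0.32 and fell by 0.22 ± 0.05 (0.00806), a small change with a small error.

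Of genes of the spindle, Tpx2, which activates aurora A on spindle microtubules, read -1.03, -0.76 and -0.70. All 3 lay below the naive values of 0.34, 0.16 and 0.11, and the fit gave -0.93 ± 0.16 (adjusted p = 0.00149), or 0.526 times. Nusap1 probe 2, which bundles spindle microtubules, read -0.92, -0.34 and -0.94 and fell by 0.85 ± 0.18 (0.00672). That call was lost without TG17d(1) (0.0549) or TG17d(7) (0.0621). The other Nusap1 probe, probe 1, lay on the other side of 0, at 0.27 ± 0.18 (0.311), and was called higher without WT17d(1), at 0.70 (0.0209). Kif23, a kinesin of the midzone at cytokinesis, read -0.41, -0.48 and -0.84 with probe 1 and fell by 0.74 ± 0.14 (0.00331). Its probes 2 and 3 were at -0.49 ± 0.16 (0.0607) and -0.10 ± 0.06 (0.294). Kif20a, another midzone kinesin, fell by 0.28 ± 0.07 with probe 2 (0.014), and probe 1 was at -0.07 ± 0.17 (0.826). Plk1, a kinase of mitotic entry and exit, fell by 0.27 ± 0.09 (0.0471). Ube2c probe 2 fell by 0.56 ± 0.15 (0.0246), and Cdca3 probe 1, a trigger of mitotic entry, by 0.42 ± 0.10 (0.0164).

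Other mitosis genes did not pass at 17 dpi. Aurka, the aurora A kinase, was at -0.23 ± 0.07 (adjusted p = 0.0549), and Ccnb2, a cyclin of mitotic entry, at -0.22 ± 0.08 (0.0752). Ccna2, the A cyclin of S phase and G2, was at -0.16 ± 0.09 (0.211). Cdk1, the kinase that drives mitosis, was at -0.11 and -0.14 with its 2 probes. The 3 probes each of Top2a and Kif11 (a spindle motor), both probes of Cenpa (the centromeric histone) and that of Cdc20 (an activator of the anaphase-promoting complex) had values from -0.54 to 0.42, none of them called.

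In S phase, 4 of the 6 subunits of the Mcm2 to Mcm7 helicase, which unwinds DNA at replication forks, had a probe that fell at 17 dpi: Mcm3 probe 2 by 0.71 ± 0.18 (adjusted p = 0.0206), Mcm7 by 0.39 ± 0.10 (0.0163), Mcm4 probe 1 by 0.33 ± 0.08 (0.0147) and Mcm5 by 0.33 ± 0.09 (0.0348). The other probes of Mcm3 and Mcm4 did not pass: they were at 0.01 ± 0.17 (0.97) and 0.30 ± 0.33 (0.55). Mcm2 (-0.04 ± 0.15) and Mcm6 (-0.13 ± 0.08) did not pass. Both subunits of ribonucleotide reductase, which makes deoxynucleotides, also fell. Rrm1 probe 2 read -0.57, -0.94 and -0.06, against 0.12, -0.07 and 0.06 in naive mice, so that 1 array at 17 dpi overlapped the naive range. It fell by 0.56 ± 0.12 (0.00693), and Rrm2 by 0.65 ± 0.18 (0.0257). Pcna, the sliding clamp of DNA polymerases, was at -0.21 ± 0.08 (0.0924). The 3 Tyms probes lay between -0.11 and 0.10, and the Cdc6 probes, of a factor that loads the helicase, at 0.05 and 0.70 (0.194). The other Rrm1 probe, probe 1, was at 0.72 ± 0.64, and it and Cdc6 probe 2 read 4.12 and 2.71 on the array of TG17d(3) and WT17d(4).

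Of the 3 D cyclins, 2 had a probe that fell, and no test of a difference between them was run. Ccnd3 read -0.34, -0.11 and -0.46 on the 17 dpi arrays and 0.08, -0.20 and 0.12 on the naive ones, so that single values overlapped. It fell by 0.37 ± 0.07 (adjusted p = 0.00307), to 0.772 times. Ccnd2 probe 3 read -0.04, -0.35 and -0.33 and fell by 0.36 ± 0.09 (0.0221), while its probe 1 (0.11, -0.07 and 0.07) and probe 2 (0.10, 0.34 and -0.23) did not pass. Ccnd1 read -0.11, 0.17 and -0.15 and did not pass (-0.17 ± 0.10, adjusted p = 0.268). The next members of G1 were Ccne1 probe 1, an E cyclin, at -0.13 ± 0.04 (0.0628), Cdk4 at -0.32 ± 0.11 (0.0753) and Cdk2 probe 1 at -0.13 ± 0.07 (0.203). Both probes of Ccne2 were near 0, at 0.05 and 0.02.

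**Figure D2:**
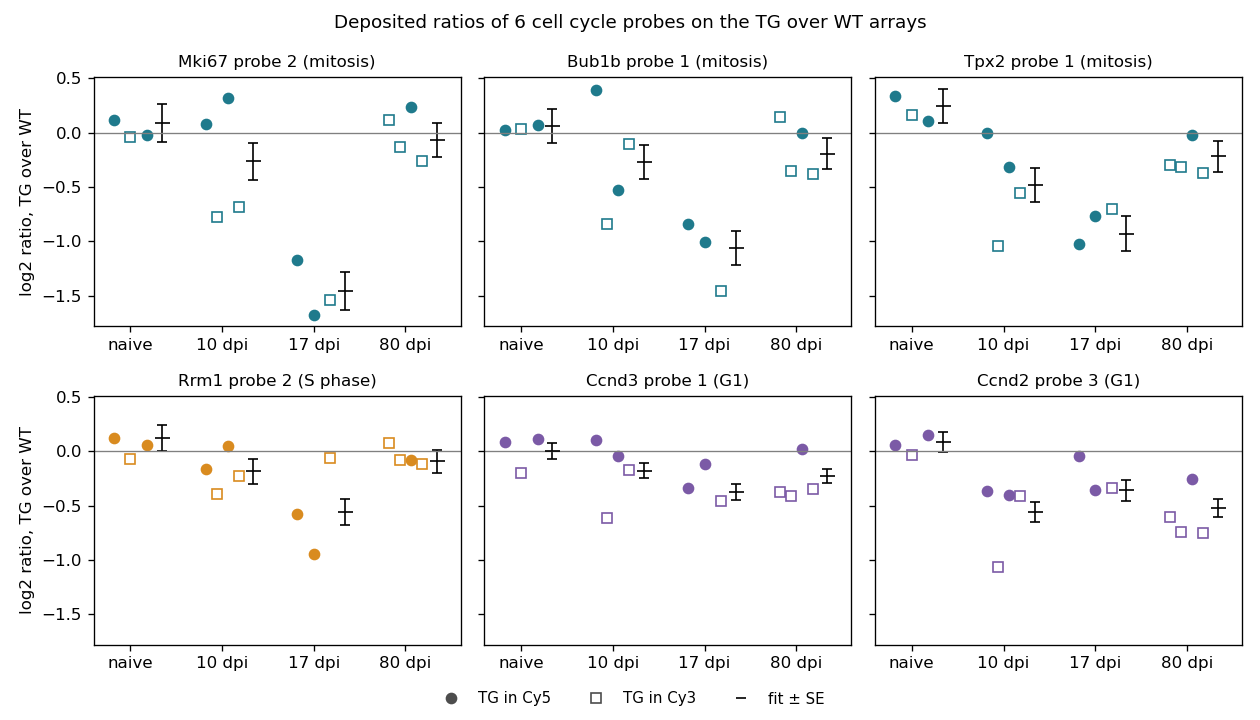
Deposited log2 ratio (TG over WT) of Mki67 probe 2, Bub1b, Tpx2, Rrm1 probe 2, Ccnd3 and Ccnd2 probe 3 on each of the 14 arrays that set TG against WT, with filled circles for TG in Cy5, open squares for TG in Cy3, and the fitted value ± 1 SE in black. Mki67 probe 2 lies between -1.17 and -1.68 on the 3 arrays of 17 dpi and between -0.04 and 0.12 in naive mice, while Ccnd2 probe 3 is lowest at 10 and 80 dpi.

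The number of calls at 17 dpi depended on single animals. It was 6 without TG17d(1), 8 without TG80d(21), 11 without WT17d(4), 12 without TGn(5) and 15 or more without any other animal. With a correlation of 0.25 between arrays that share an animal, 8 probes were called. Without the 3 animals with skeletal muscle signal, TG80d(21), TG80d(27) and TG10d(1-5), 4 were called, and with the 3 direct arrays alone 0. Mki67 probe 2, Bub1b and Kif23 probe 1 kept their calls in 31 of 32 alternatives that keep the direction, losing them only with the 3 direct arrays alone. Mki67 then ranged from -1.61 to -1.18 and Bub1b from -1.23 to -0.86. Tpx2 kept its call in 30, Ccnd3 and Rrm1 probe 2 in 29, Ccnd2 probe 3 in 19 and Plk1 in 9. Some of the 32 were not separate checks of these calls. The correlation of 0 is the estimate used in the main fit itself. The filters on missing values removed no member probe, since each had all its values. No array links animals of the earliest time after induction to other times. Leaving these animals out could act only through the dye effect, the spread and the adjustment of p. Without WT17d(1) Ccnd3 was at -0.29 (adjusted p = 0.0523). Only 1 of the 3 direct arrays is read the other way in title order, and Mki67 probe 2 then had a fitted value of -0.16 and Bub1b of 0.06.

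Markers of several cell types differed between the genotypes at the same time. At 17 dpi 24 of 32 macrophage and microglia marker probes, of 17 of the 18 genes, fell in TG over WT, with a median of -1.27 and medians of -1.26, -1.21 and -1.54 on the 3 arrays. Of the T cell marker probes 9 of 20 were lower and 2 higher, with a median of -0.13. Of the neutrophil marker probes 3 of 11 were higher (Ngp at 1.19 ± 0.30 and Retnlg at 0.81 ± 0.21) and 1 lower (Lcn2 at -1.99 ± 0.36), with a median of 0.53. Of the astrocyte marker probes 1 of 25 was higher and 2 were lower. Neuronal markers were higher with 5 of 23 probes and lower with 0 (median 0.13), and myelin and oligodendrocyte markers higher with 4 of 17 and lower with 1 (median 0.27). Red blood cell genes were higher with 6 of 8 probes (median 1.42). The part of these cells in the fall of the cell cycle genes was not tested.

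At 80 dpi Ccnd2 fell in TG over WT with 2 of its 3 probes, and no other member passed (1.47% of all probes called lower). With array weights in the fit 16 member probes passed, 15 lower and 1 higher. Fibroblast and meningeal markers were lower with 8 of 16 probes, and their part was not tested. Probe 3 of Ccnd2 read -0.60, -0.74, -0.25 and -0.75 on the arrays TG80d(26) over WT80d(13), 21 over 15, 26 over 15 and 27 over 14. All 4 lay below the naive values (0.06, -0.04 and 0.15), and the fit gave -0.52 ± 0.08 (SE, 3 against 3 animals, adjusted p = 0.00336), or 0.696 times the WT level. Probe 1 read -0.22, -0.30, -0.41 and -0.12 and fell by 0.29 ± 0.05 (adjusted p = 0.0104). Probe 2 read -0.28, -0.31, 0.13 and -0.25 and was at -0.07. The call of probe 3 was lost without any 1 of 5 of the 6 animals at 80 dpi, its adjusted p then lying between 0.051 and 0.0793 with values of -0.59 to -0.47. For probe 1 the same held for 4 animals, with adjusted p from 0.07 to 0.401.

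The other D cyclins had values of the same sign at 80 dpi. Ccnd3 read -0.38, -0.41, 0.02 and -0.35 (-0.23 ± 0.06, adjusted p = 0.103), and Ccnd1 -0.12, -0.22, -0.13 and -0.34 (-0.16 ± 0.09, 0.881). In S phase the smallest p belonged to Pcna (-0.18 ± 0.07, 0.397), Mcm4 probe 1 (-0.15 ± 0.07, 0.628) and Mcm3 probe 2 (-0.33 ± 0.16, 0.718). Mki67 probe 2 read 0.12, -0.13, 0.24 and -0.26, on both sides of 0, and Bub1b 0.15, -0.35, 0.00 and -0.38. Of the mitosis genes, Tpx2 (-0.22 ± 0.14, 0.981), Cenpa probe 2 (0.10 ± 0.06, 0.989) and Bub1b (-0.19 ± 0.14, 1.0) had the smallest p. The phase medians were -0.09, -0.06 and -0.04 (all probes 0.0054). Of the macrophage and microglia marker probes 17 of 32 fell at this time (median -0.95), beside 1.47% of all probes called lower. The mitosis median on these arrays lay between -0.16 and 0.09, and the part of these cells in the member values was not tested. Both arrays of TG80d(21) and TG80d(27) against WT carried skeletal muscle medians of 0.69 and 0.61. Without these animals and TG10d(1-5), Ccnd2 probe 3 was at -0.43 and no member was called.

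In WT mice, probes of S phase and mitosis genes rose from naive to 17 dpi, and none of the 12 G1 probes passed the test. Of the 65 probes 21 rose and 0 fell (8.42% of all probes called higher and 7.81% lower): 8 of 17 in S phase and 13 of 36 in mitosis. Fitted as 1 value a gene, 17 of 39 members rose beside 10.8% of all genes, and these included 1 G1 gene, Cdk2, at 0.77 ± 0.26 (adjusted p = 0.0489). Medians were 0.46 for S phase, 0.31 for mitosis and 0.12 for G1 (all probes -0.029), with 15 of 17, 28 of 36 and 9 of 12 probes above 0. On the 1 array that pairs these groups directly, WT17d(1) over WTn(2), the member median was 0.47. This contrast shares its WT animals at 17 dpi with TG over WT at that time, where 12 of these 21 probes fell. The 2 sets of values are therefore not independent.

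In mitosis the steepest rise in WT mice was that of Aurkb, at 2.17 ± 0.43 (SE, 2 and 3 animals, adjusted p = 0.00283), or 4.49 times, with 3.43 on the direct array. Mki67 probe 2 rose by 1.54 ± 0.23 (0.000368), or 2.91 times, and read 1.94 on that array. Tpx2 rose by 1.46 ± 0.21 (0.000315), or 2.74 times, with 2.02 on that array. Bub1 rose by 1.503 ± 0.34 (0.0071), Top2a probe 2 by 1.33 ± 0.39 (0.0315), Nusap1 probe 2 by 1.23 ± 0.24 (0.00253) and Bub1b by 1.17 ± 0.21 (0.00137). Probes 1 and 2 of Kif23 both rose, probe 2 by 0.98 ± 0.21 (0.0058) and probe 1 by 0.84 ± 0.18 (0.00579). Smaller rises were those of Ube2c probe 2 (0.68 ± 0.20, 0.0269), Cdk1 probe 2 (0.62 ± 0.11, 0.00188), Kif11 probe 1 (0.59 ± 0.19, 0.0435) and Cdca3 probe 2 (0.42 ± 0.12, 0.0273). The Cdca3 probe that fell in TG over WT at 17 dpi was the other one, probe 1.

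In S phase of WT mice, Mcm3 probe 2 rose by 1.25 ± 0.24 (adjusted p = 0.0025), Mcm7 by 0.73 ± 0.13 (0.00133) and Mcm2 by 0.67 ± 0.19 (0.0262). Rrm2 rose by 1.00 ± 0.23 (0.00799) and Rrm1 probe 2 by 0.96 ± 0.16 (0.000796). Tyms rose with probes 1 and 3, by 0.80 ± 0.18 (0.00667) and 0.58 ± 0.15 (0.0126), and Pcna by 0.46 ± 0.10 (0.0071). In G1 the smallest p belonged to Cdk2 probe 2 (1.38 ± 0.54, adjusted p = 0.101), Ccnd2 probe 3 (0.26 ± 0.12, 0.185) and Ccne2 probe 2 (0.26 ± 0.13, 0.192). The rise rested on the animals of the direct array: 5 probes were called without WT17d(1) and 1, Tpx2, without WTn(2). The S phase median was then 0.14 and 0.20, and the mitosis median 0.14 and 0.03. Macrophage and microglia markers rose with 25 of 32 probes in the same contrast (median 1.92), T cell markers with 6 of 20 and neutrophil markers with 3 of 11, led by S100a8 at 3.59 ± 0.44. Myelin and oligodendrocyte markers fell with 9 of 17 probes (median -0.61), neuronal markers with 7 of 23 (median -0.53), oligodendrocyte progenitor markers with 5 of 20 and red blood cell genes with 3 of 8. The part of these cells was not tested.

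**Figure D3:**
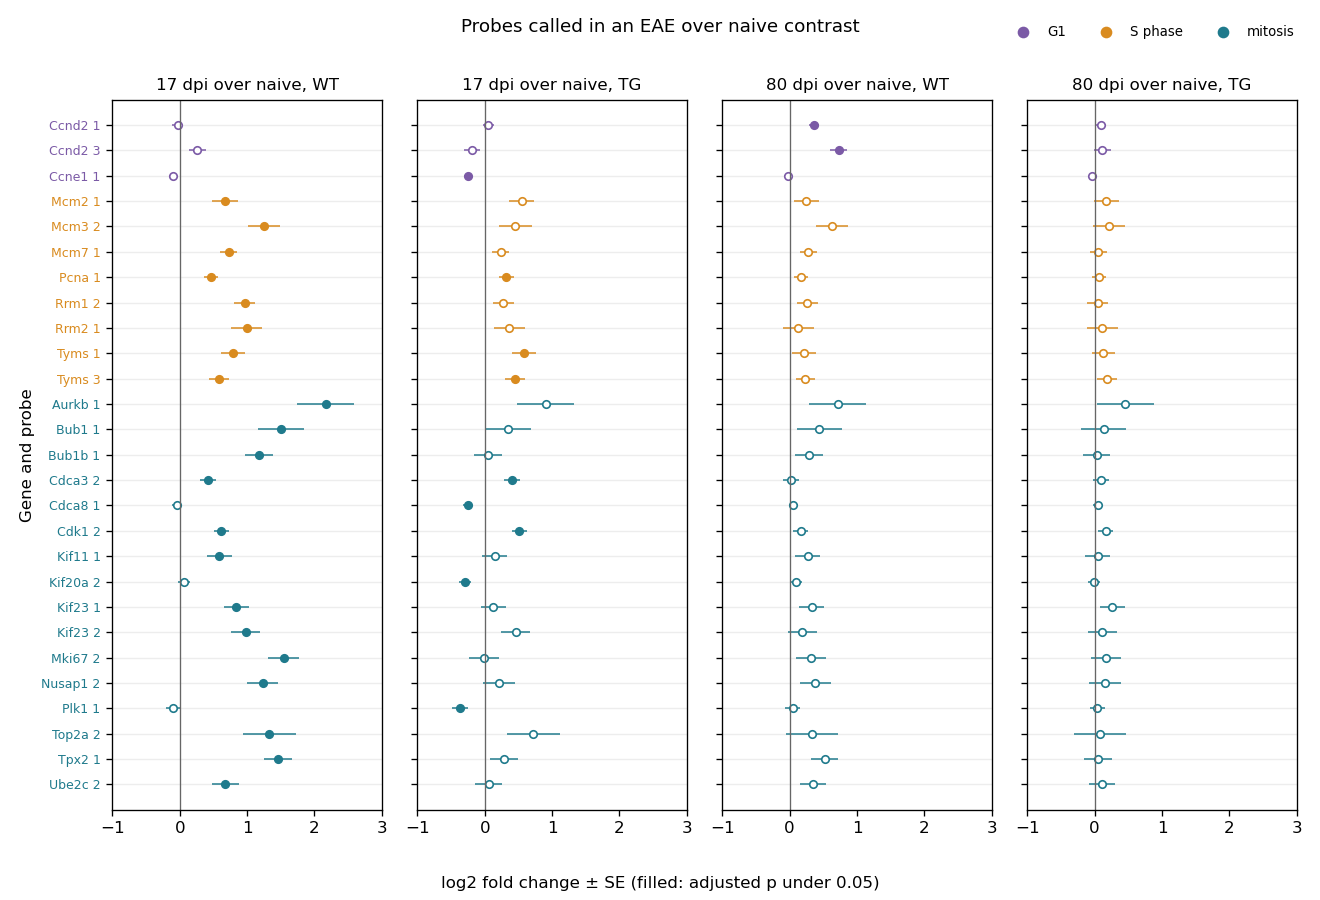
Log2 fold change of EAE over naive (horizontal axis) with bars of ± 1 SE, for the member probes called in at least 1 of 4 contrasts: WT and TG at 17 and at 80 dpi. WT mice at 17 dpi hold the highest values, up to 2.17 for Aurkb, and at 80 dpi the only filled points (adjusted p under 0.05) are 2 probes of Ccnd2 in WT mice.

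In TG mice 5 of 65 probes rose and 4 fell from naive to 17 dpi, shares near those of all probes (6.88% called higher and 9.88% lower), so the counts are no result about the members. The probes that rose were Tyms probe 1 (0.59 ± 0.18, adjusted p = 0.0365) and probe 3 (0.45 ± 0.15, 0.0469), Pcna (0.32 ± 0.10, 0.0461), Cdk1 probe 2 (0.51 ± 0.11, 0.00788) and Cdca3 probe 2 (0.41 ± 0.12, 0.0336). All 5 also rose in WT mice. Those that fell were Ccne1 probe 1 (-0.25 ± 0.06, 0.0085), Cdca8 probe 1 (-0.25 ± 0.06, 0.0157), Plk1 (-0.37 ± 0.11, 0.0361) and Kif20a probe 2 (-0.29 ± 0.09, 0.0363). Mki67 probe 2 was at -0.01 and Bub1b at 0.05. On the 1 direct array, TG17d(1) over TGn(5), Mki67 probe 2 read 0.08, Bub1b 0.15, Tpx2 0.20, Rrm1 probe 2 0.11 and Aurkb 0.65. Mcm2 (0.55 ± 0.19, 0.0625) and Ccnd3 (-0.25 ± 0.09, 0.0787) came next. Medians were 0.28 for S phase, 0.08 for mitosis and -0.05 for G1 (all probes 0.0225). No call remained without TG17d(1). Macrophage and microglia markers rose with 5 of 32 probes (median 0.47).

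By 80 dpi the mitosis and S phase genes of WT mice were lower than at 17 dpi with 10 probes. Ccnd2 was higher with 2 of its 3 probes, a share of the member probes near that of all probes. From naive to 80 dpi only Ccnd2 rose (0.98% of all probes called higher), with probe 3 by 0.73 ± 0.12 (adjusted p = 0.00688) and probe 1 by 0.36 ± 0.08 (0.0423). On the direct array, WT80d(14) over WTn(4), these read 0.73 and 0.50, and Ccnd1 read 0.40. Probe 2 of Ccnd2 read -0.11 there and was at 0.14 in the fit, not called. Over 31 alternatives that keep the direction, the call of probe 3 was kept in 25 and that of probe 1 in 11. These tallies include the correlation of 0 and the filters on missing values, which moved no call. Ccnd3 was at 0.30 ± 0.09 (0.186) and Ccnd1 at 0.37 ± 0.13 (0.332). Mcm3 probe 2 was at 0.62 ± 0.24 (0.402) and Tpx2 at 0.52 ± 0.21 (0.449). Phase medians were 0.13, 0.22 and 0.14 for G1, S phase and mitosis (all probes -0.0004). In the same contrast macrophage and microglia markers rose with 13 of 32 probes (median 1.20), fibroblast and meningeal markers with 7 of 16 (median 0.59), endothelial and mural markers with 4 of 25 and neutrophil markers with 3 of 11, led by S100a8 at 4.82 ± 0.43. Their part in the rise of Ccnd2 was not tested. From 17 to 80 dpi, 2 probes rose and 10 fell (3.88% of all probes called higher and 4.05% lower), so the count of rises is no result about the members. The 2 that rose were of Ccnd2, probe 1 by 0.39 ± 0.08 (0.00838) and probe 3 by 0.46 ± 0.12 (0.031). Its probe 2 was at 0.07 and not called.

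The 10 probes that fell in WT mice from 17 to 80 dpi were all among the 21 that had risen from naive, and the 2 contrasts share the animals of 17 dpi. Aurkb fell by 1.45 ± 0.42 (adjusted p = 0.0466), Mki67 probe 2 by 1.22 ± 0.22 (0.00432), Tpx2 by 0.94 ± 0.21 (0.0121) and Bub1b by 0.89 ± 0.20 (0.0155). Nusap1 probe 2 fell by 0.85 ± 0.23 (0.0377), Kif23 probe 2 by 0.79 ± 0.21 (0.0337) and Cdk1 probe 2 by 0.45 ± 0.11 (0.023). In S phase, Rrm2 fell by 0.87 ± 0.23 (0.03), Rrm1 probe 2 by 0.70 ± 0.15 (0.0126) and Mcm7 by 0.45 ± 0.13 (0.0396). The direct array, WT17d(1) over WT80d(13), gave 0.72 for Mki67 probe 2, 0.60 for Tpx2 and 0.58 for Bub1b, each in the same direction and smaller than the fit. Without WT80d(14), 1 member probe was called in this contrast.

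In TG mice no member was called from naive to 80 dpi (0.0206% of all probes), and 0 of 65 had an unadjusted p under 0.05 against 1.46% of all probes. Medians were 0.06, 0.06 and 0.07. From 17 to 80 dpi 5 probes rose and 0 fell (6.65% of all probes called higher and 4.12% lower). The share that rose is near that of all probes, so this count is no result about the members. The probes that rose were Plk1 (0.41 ± 0.11, adjusted p = 0.0293), Birc5 (0.37 ± 0.11, 0.0393), Ccnd3 (0.32 ± 0.09, 0.0368), Cdca8 probe 1 (0.30 ± 0.06, 0.01) and Ccne1 probe 1 (0.21 ± 0.06, 0.0241). Plk1, Cdca8 and Ccne1 had fallen in TG mice from naive to 17 dpi, in a contrast that shares the animals of 17 dpi. Without TG17d(1), TG80d(21), TG80d(27) or TGn(8) no member was called. In S phase the smallest p belonged to Tyms probe 1 (-0.46 ± 0.18, 0.112), Pcna (-0.26 ± 0.10, 0.122) and Mcm5 (0.26 ± 0.12, 0.196).

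Whether the genotype difference itself changed with time was tested within the same fit. Against naive mice, the difference at 17 dpi was more negative for 10 member probes (4.79% of all probes called lower). The change was -1.55 ± 0.23 for Mki67 probe 2 (adjusted p = 0.00113), -1.18 ± 0.21 for Tpx2 (0.0038) and -1.13 ± 0.21 for Bub1b (0.00485), and the others were Nusap1 probe 2, Kif23 probe 1, Kif20a probe 2, Rrm1 probe 2, Mcm7, Ccnd2 probe 3 and Ccnd3. Without TGn(5), 1 probe was called. At 80 dpi against naive it was more negative for Ccnd2 probe 3 only, at -0.61 ± 0.12 (0.0385, 0.359% of all probes called lower). That call was lost without any 1 of the naive or 80 dpi animals, with no dye term and at a correlation of 0.25. From 17 to 80 dpi the genotype difference rose for 2 probes and fell for 1 (1.21% of all probes called higher and 0.454% lower). Mki67 probe 2 rose by 1.39 ± 0.22 (0.00537) and Bub1b by 0.87 ± 0.20 (0.0391), whereas Ccnd2 probe 1 fell by 0.35 ± 0.08 (0.0363). None was called without TG17d(1), TG80d(21), TG80d(26) or WT80d(15). In the fit of all arrays, Mki67 probe 2 and Bub1b differed between genotypes more at 17 than at 80 dpi, and Ccnd2 probe 1 more at 80 dpi. At 10 dpi against naive no member probe was called (0.0%), and 10 had an unadjusted p under 0.05, against 4.65% of all probes. The groups of these differences share the dye effect and the estimate of the spread.

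**Figure D4:**
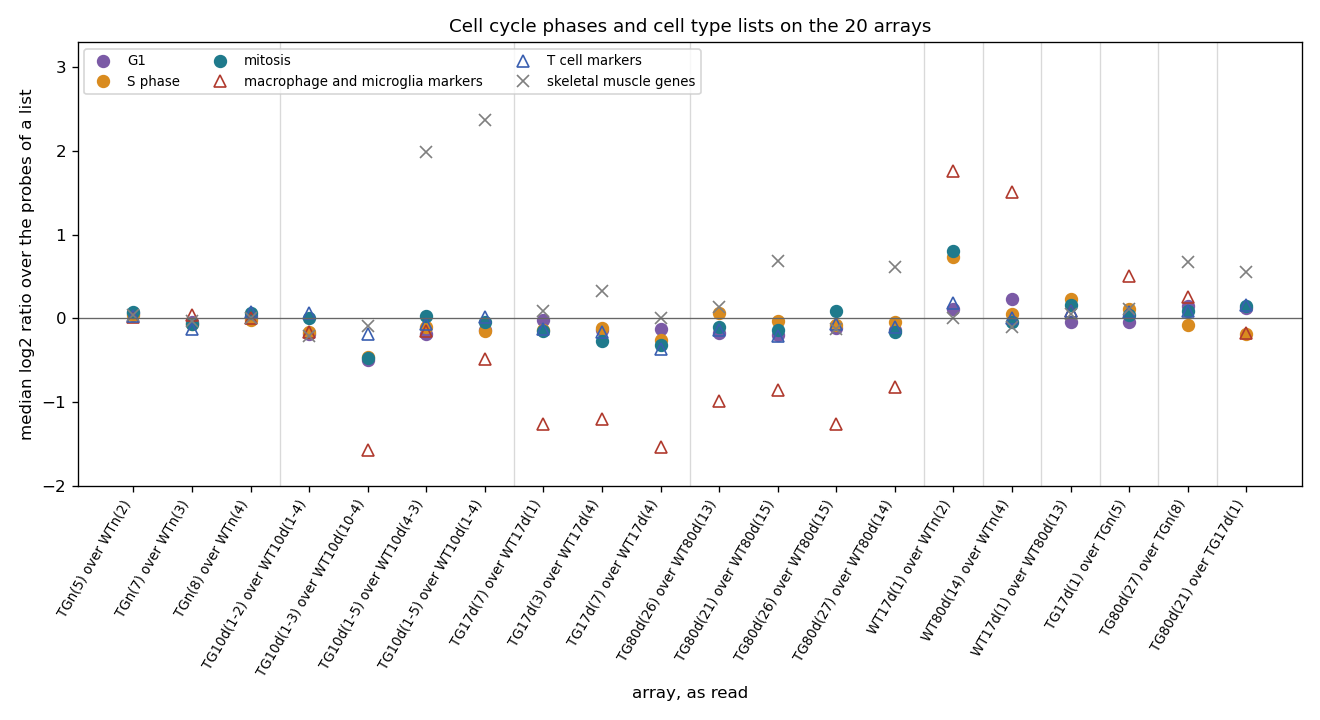
Median log2 ratio of the probes of each phase, and of the macrophage and microglia, T cell and skeletal muscle lists, on each of the 20 arrays. The mitosis median is highest on WT17d(1) over WTn(2), at 0.80, where the macrophage and microglia median is 1.76, and lowest on the 10 dpi array of TG animal 1-3, at -0.47, where the latter is -1.58.

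Genes of the cell cycle outside the 40 were taken from 5 lists. For TG over WT at 17 dpi their counts stand beside 8.51% of all probes called lower and 4.65% higher, for WT mice from naive to 17 dpi beside 8.42% higher and 7.81% lower, and for TG mice beside 6.88% higher and 9.88% lower. Of 108 probes for 57 other mitotic genes, 23 fell and 3 rose in TG over WT at 17 dpi, with a median of -0.02. Cks2, a Cdk subunit, fell by 0.70 ± 0.12 (adjusted p = 0.00116), Incenp, the scaffold of the passenger complex, by 0.56 ± 0.11 (0.00434) and Cdkn3, a phosphatase of Cdks, by 0.94 ± 0.19 (0.00525). Of 51 probes for 38 other replication genes, 10 fell and 0 rose (median -0.07), led by Gmnn (geminin, which limits origin licensing) at -0.80 ± 0.10 (0.000107), Cdt1, which licenses origins, at -0.49 ± 0.10 (0.006) and Pola2, of DNA polymerase alpha, at -0.43 ± 0.10 (0.0146). In WT mice from naive to 17 dpi, 27 of the 108 mitotic probes rose and 2 fell, with Cdkn3 at 1.82 ± 0.25 and Cks2 at 1.08 ± 0.15, while the histone chaperone gene Hjurp fell by 0.71 ± 0.09. Of the 51 replication probes 11 rose and 1 fell, with Gmnn at 1.19 ± 0.13, Slbp at 0.97 ± 0.16 and Prim1 at 0.57 ± 0.14. In TG mice the counts were 13 rising and 4 falling of the mitotic probes, and 2 and 2 of the replication probes.

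Of 15 probes for 10 Cdk inhibitors and pocket proteins, 1 rose and 3 fell in TG over WT at 17 dpi. Cdkn1c, an inhibitor of G1 Cdks, rose by 1.10 ± 0.12 (adjusted p = 4.3e-05), while Rb1, the retinoblastoma protein, fell by 0.71 ± 0.10 (0.000291) and the Cdk inhibitor Cdkn1b by 0.31 ± 0.07 (0.0107). In WT mice from naive to 17 dpi 2 rose, Rb1 by 1.01 ± 0.13 and Cdkn2b by 0.71 ± 0.15, and 2 fell, with Cdkn1c at -0.85 ± 0.16. Rb1 was still lower in TG mice at 80 dpi, by 0.42 ± 0.09 (0.0213), the only call of its list then. Of 20 probes for 10 p53 and growth arrest genes, 4 fell at 17 dpi, led by the antiproliferative gene Btg1 at -1.62 ± 0.15, Sesn1 at -0.32 ± 0.06 and Btg2 at -0.35 ± 0.10. Btg1 rose in WT mice by 1.49 ± 0.19. Of 31 probes for 15 E2F and other cell cycle transcription factors, 1 rose and 3 fell at 17 dpi, near the shares of all probes. Lin9 (-0.31 ± 0.08) and Lin54 (-0.25 ± 0.07), both of the complex that binds CHR sites, fell, and Tfdp2, a partner of E2Fs, rose by 0.24 ± 0.07. In WT mice 4 of these probes rose, with Myc at 0.86 ± 0.22, Lin54 at 0.52 ± 0.09 and E2f2 at 0.36 ± 0.11.

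The dye effect of the 65 probes, Cy5 over Cy3, lay between -0.38 and 0.38, with a median size of 0.106 beside 0.128 for all probes. In none of the called member probes was it larger than the fold change. Where a gene had several probes, a call was rarely shared: in TG over WT at 17 dpi none of the 11 called genes with 2 or 3 probes had a second probe called.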

How the data were processed

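Spinal cord RNA of 23 mice was measured on 20 two-colour arrays. The values deposited by the authors are ratios, read here as log2. Per the labels' design text, limma's global loess was applied within arrays, followed by quantile normalization across arrays. Not given in the sources used here are the log base, the direction, the scanner and any removal of dim probes. Each array held 43710 to 43894 values, and the number of arrays limits the precision.

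Each probe with a value on at least 10 of the 20 arrays was fitted in R 4.3.3 by generalised least squares. The fit had terms for each group and for the dye, and its variances were moderated with limma 3.58.1. At a correlation of 0, its p-values equalled those of limma's own fit on probes without missing values. The common correlation of arrays that share an animal was estimated at 0 (0.02 for genes). Moderated tests had 13 residual and 1.92 prior degrees of freedom. The p-values, adjusted by Benjamini-Hochberg over all probes, were called under 0.05. The fit was tested on simulated data. No 2 arrays were identical. Gene symbols came from the platform annotation: 32042 probes had 1 symbol, 47 several and 12201 none.

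Named genes were all called members of a contrast and, in a phase with fewer than 3, those with the smallest p, with per-array values for the members with the smallest p at 17 and 80 dpi and for the D cyclins. Of the other lists, up to 3 called genes a contrast were named. The members and lists were chosen with earlier results of these data known. Figures were drawn with matplotlib 3.10.9. Alternatives were the title order, no dye term, a correlation of 0 or 0.25, scaled or weighted arrays, other filters on missing values, probes averaged per gene, the direct arrays alone, and fits without each animal or without 3 animals with skeletal muscle signal.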

Additional observations from a re-analysis of the deposited data

Results flagged for a closer look

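On 3 of 130 sets of 4 arrays (2.31%), 1 array lay apart from the others by Dixon's criterion, which chance meets in about 1 in 20 sets. With the dye effect taken off, Tyms probe 2 was at 0.50 on the array of TG10d(1-5) over WT10d(1-4) and between -0.14 and -0.08 on the others of 10 dpi. At 80 dpi, Cdk1 probe 1 was at 0.0538 on TG80d(26) over WT80d(15), with the others between -0.15 and -0.13. Cdc20 was at -0.008 on TG80d(27) over WT80d(14), with the others at -0.08.

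The difference between TG and WT changed between times for the members below by the test of the difference itself (limma, adjusted over all probes). Between naive mice and 17 dpi it moved by -1.55 for Mki67 probe 2, -1.18 for Tpx2, -1.13 for Bub1b and -1.02 for Nusap1 probe 2. It moved by -0.72 for Kif23 probe 1, -0.69 for Rrm1 probe 2, -0.49 for Mcm7, -0.45 for Ccnd2 probe 3, -0.38 for Ccnd3 and -0.35 for Kif20a probe 2. The adjusted p of these 10 lay between 0.00113 (Mki67) and 0.0445 (Ccnd2). Between naive mice and 80 dpi it moved by -0.61 for Ccnd2 probe 3 (adjusted p = 0.0385), a call lost without any 1 of the naive or 80 dpi animals. From 17 to 80 dpi the difference moved by 1.39 for Mki67 probe 2 (0.00537), by 0.87 for Bub1b (0.0391) and by -0.35 for Ccnd2 probe 1 (0.0363). None of these calls was kept without TG17d(1), TG80d(21), TG80d(26) or WT80d(15).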

How the results depend on the processing

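Reading the ratios in title order turned the sign of 60 values, more than any other setting, while array weights added the most calls. The member probes called became 4 at 10 dpi, 0 at 17 dpi and 10 at 80 dpi in TG over WT. They became 0 in WT at 17 and 80 dpi over naive and at 80 over 17 dpi, 0 in TG at 17 dpi over naive and at 80 over 17 dpi, and 0 in the differences of 17 and 80 dpi from naive and of 80 from 17 dpi. In TG over WT, values that turned sign in title order were -0.32 for Tyms probe 2 at 10 dpi, and at 17 dpi 0.0551 for Ccnd2 probe 3, 0.0126 for Ccnd3, 0.0246 for Mcm4 probe 1, 0.13 for Mcm5, 0.0049 for Mcm7, 0.13 for Rrm2, 0.0718 for Bub1, 0.0617 for Bub1b, 0.0166 for Cdca3 probe 1, 0.11 for Kif23 probe 1, 0.12 for Nusap1 probe 2 and 0.10 for Ube2c probe 2. At 80 dpi they were 0.49 and 0.0452 for Ccnd2 probes 3 and 1, 0.32 for Ccnd3, -0.23 for Ccne1 probe 2, 0.34 for Mcm4 probe 1, 0.45 for Mcm5 and 0.34 for Aurka. In WT at 17 dpi over naive they were -0.33 for Mcm2, -0.82 for Mcm3 probe 2, -0.37 for Mcm7, -0.33 for Rrm1 probe 2, -0.33 for Rrm2, -0.44 and -0.74 for Tyms probes 1 and 3, -0.59 for Mki67 probe 2, -0.72 for Top2a probe 2, -0.91 for Bub1, -0.43 for Bub1b, -0.41 for Cdk1 probe 2, -0.32 for Cdca3 probe 2, -0.86 for Aurkb, -0.19 for Kif11 probe 1, -0.27 and -0.56 for Kif23 probes 1 and 2, -0.68 for Nusap1 probe 2, -0.58 for Tpx2 and -0.69 for Ube2c probe 2. In WT at 80 dpi over naive they were -0.40 and -0.22 for Ccnd2 probes 3 and 1, and at 80 over 17 dpi -0.0042 for Ccnd2 probe 3, 0.0214 for Aurkb, 0.10 for Kif23 probe 2 and 0.18 for Nusap1 probe 2. In TG at 17 dpi over naive they were -0.0532 and -0.29 for Tyms probes 1 and 3, -0.0378 for Cdk1 probe 2 and -0.0918 for Cdca3 probe 2. In the difference of 17 dpi from naive they were 0.0902 for Ccnd2 probe 3, 0.18 for Mcm7, 0.0879 for Mki67 probe 2, 0.25 for Bub1b, 0.0056 for Kif20a probe 2, 0.13 for Kif23 probe 1, 0.26 for Nusap1 probe 2 and 0.19 for Tpx2. Ccnd2 was at 0.53 (probe 3) in that of 80 dpi from naive and at 0.0002 (probe 1) in that of 80 from 17 dpi. In the working direction 1 probe turned sign, Mcm3 probe 1 in TG over WT at 17 dpi, called at -0.22 with array weights and at -0.33 without TG17d(3).

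Counts of member probes called that moved by over 1.5 times under other settings are as follows. In TG over WT at 10 dpi, scaled arrays gave 1. At 17 dpi, no dye term gave 11, a correlation of 0.25 gave 8, genes in place of probes 13, the fit without the 3 animals with muscle signal 4 and the direct arrays 0. At 80 dpi the counts were 1 without a dye term, 1 at a correlation of 0.25, 16 with array weights, 1 by gene, 0 without the 3 animals and 1 with direct arrays. In WT at 80 dpi over naive they were 1, 1, 8 and 1 under the first 4 of these settings and 0 without the 3 animals. In WT at 80 over 17 dpi they were 5 without a dye term, 1 at 0.25, 25 with weights and 0 without the 3 animals. In TG at 17 dpi over naive they were 0, 3, 18, 3 and 0 under the same 5 settings, and 4 with scaled arrays. In TG at 80 dpi over naive, weights gave 6. In TG at 80 over 17 dpi they were 0, 1, 20, 3 and 0, and 0 with scaled arrays. For the difference of 17 dpi from naive they were 5 without a dye term, 3 at 0.25, 5 with scaled arrays, 27 with weights and 2 without the 3 animals. For that of 80 dpi from naive they were 0, 0, 13, 0 and 0, and for that of 80 from 17 dpi 1, 0, 21, 1 and 0. The cause of these moves was not tested.

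Leaving out each of the 23 animals in turn gave 0 to 0 calls in TG over WT in naive mice, 0 to 1 at 10 dpi, 6 to 24 at 17 dpi and 0 to 3 at 80 dpi. In WT the range was 1 to 29 at 17 dpi over naive, 0 to 3 at 80 dpi over naive and 1 to 18 at 80 over 17 dpi. In TG it was 0 to 12, 0 to 0 and 0 to 9. For the differences it was 0 to 0 for 10 dpi from naive, 1 to 15 for 17 dpi, 0 to 1 for 80 dpi and 0 to 3 for 80 from 17 dpi. No paired analysis was possible because each array already pairs 2 animals and its replicate number only names the array.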
